A study of Mus musculus with 24 samples.

Results

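NK activating receptors and the adaptor proteins that carry their signal were followed in NK1.1+CD3e+ cells of the mouse liver, profiled singly. The set was 10 genes chosen by symbol from the 24447 gene rows of 1 count table, and all 10 were found: the adaptors Tyrobp, Fcer1g, Hcst, Cd247 and Sh2d1a, and the receptors Ncr1, Cd244, Cd160, Cd7 and Cd226. The cells came from C57BL/6 mice of 3 genotypes, wild type (WT), Jα18-/- and CD1d-/-. The mice were young adults, and the labels name no treatment. Each deletion is carried in the germline of the whole animal, so every cell of the animal lacks the gene. Without Jα18 the invariant receptor that defines type I NKT cells cannot be built, and without CD1d no NKT cell that depends on this molecule is selected. Leukocytes were taken from perfused livers, the NK1.1+CD3e+ gate was sorted, and single cells were picked by hand, so the proportions of cells below are those of the gate and not of the liver.

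The labels list 24 libraries, 8 for each genotype, but a cell's name in the table gives only its genotype. The cells of a genotype were therefore treated as 1 pool: 623 WT, 725 Jα18-/- and 387 CD1d-/- cells. With 1 pool for each genotype no test between genotypes was possible, and the intervals printed with levels and shares are 95% intervals that cover counting error only. The pools differed in depth, with medians of 40467, 46670 and 13508 unique molecular identifiers (UMIs, each standing for 1 captured transcript) per cell, so shares of cells were compared after every cell was thinned at random to 10000 UMIs. That left 523 WT, 632 Jα18-/- and 227 CD1d-/- cells, and 353 shallower cells were left out.

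Most activating receptors of NK cells have no signalling tail of their own and pair in the membrane with small adaptors. Tyrobp encodes DAP12, Fcer1g the Fc receptor γ chain and Cd247 the CD3ζ chain, whose tails hold immunoreceptor tyrosine-based activation motifs (ITAMs) that recruit the kinases Syk and Zap70 once phosphorylated. Hcst encodes DAP10, the partner of NKG2D, which recruits PI3 kinase in place of Syk or Zap70, and Sh2d1a encodes SAP, the adaptor of the SLAM receptors, which is also required for NKT cell development. Among the receptors, Ncr1 encodes NKp46, which pairs with the Fc receptor γ chain and CD3ζ, and Cd244 encodes 2B4, a SLAM receptor for CD48 that signals through SAP. Cd160 encodes a receptor for the herpesvirus entry mediator (Tnfrsf14), Cd226 encodes DNAM-1, which signals through its own tail after binding CD155 (Pvr), and Cd7 encodes an immunoglobulin superfamily receptor of T and NK cells. The sort itself rests on such a receptor, since NK1.1 (Klrb1c) signals through the Fc receptor γ chain.

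In the NCBIM37 (mm9) annotation Tyrobp lies on chromosome 7 from 31198807 to 31202596 on the plus strand, and Hcst from 31202732 to 31204873 on the minus strand. The ends of these genes face each other with 135 bases between them, and whether counting used strand is not given in the sources used here. Fcer1g lies on chromosome 1 from 173159703 to 173164496 (minus strand), and Cd244 from 173489324 to 173515449 (plus strand), 324827 bases away. Cd247 lies on chromosome 1 from 167718812 to 167807407 (plus strand), Ncr1 on chromosome 7 from 4289326 to 4296766 (plus strand), Cd160 on chromosome 3 from 96602686 to 96633274 (minus strand), Cd7 on chromosome 11 from 120898061 to 120900732 (minus strand) and Sh2d1a on chromosome X from 39855630 to 39876874 (plus strand).

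RefSeq promoter entries were matched for 5 of the 10 members, and not for Tyrobp or Cd7. The 250 bases upstream of the start of 4 members are shown because 2 of these genes, Fcer1g and Ncr1, moved together over cells and pools below, while Hcst and Cd247 stayed apart from them. The entry of Cd160 is not shown. Ncr1 had 2 entries, and the other is not shown. The sequences are RefSeq's for GRCm38.p6, written 5′ to 3′ on the gene's strand, and capitals mark GGAAG on either strand, the core bound by ETS factors.
Fcer1g, chr1:171234350-171234599 (minus strand): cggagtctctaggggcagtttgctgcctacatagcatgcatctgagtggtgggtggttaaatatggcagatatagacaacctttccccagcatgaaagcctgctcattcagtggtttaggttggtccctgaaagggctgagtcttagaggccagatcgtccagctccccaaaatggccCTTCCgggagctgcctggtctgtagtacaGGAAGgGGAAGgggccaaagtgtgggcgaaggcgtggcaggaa
Ncr1, chr7:4337465-4337714 (plus strand): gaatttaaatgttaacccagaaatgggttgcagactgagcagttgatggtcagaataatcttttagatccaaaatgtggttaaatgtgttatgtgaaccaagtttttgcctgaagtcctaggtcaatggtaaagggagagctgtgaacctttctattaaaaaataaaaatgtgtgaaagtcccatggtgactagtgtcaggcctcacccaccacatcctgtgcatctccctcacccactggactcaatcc
Hcst, chr7:30419855-30420104 (minus strand): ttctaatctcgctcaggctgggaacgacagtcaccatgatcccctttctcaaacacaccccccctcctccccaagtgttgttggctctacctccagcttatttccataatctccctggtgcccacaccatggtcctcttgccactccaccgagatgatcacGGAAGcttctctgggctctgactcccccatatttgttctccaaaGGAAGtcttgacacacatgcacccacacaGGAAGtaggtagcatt
Cd247, chr1:165788431-165788680 (plus strand): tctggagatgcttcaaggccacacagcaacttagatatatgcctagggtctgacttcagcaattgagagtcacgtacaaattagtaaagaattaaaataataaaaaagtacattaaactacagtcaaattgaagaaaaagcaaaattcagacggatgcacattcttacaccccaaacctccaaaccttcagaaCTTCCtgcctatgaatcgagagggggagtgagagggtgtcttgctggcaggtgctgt
GGAAG occurred 3 times upstream of Fcer1g, 3 times upstream of Hcst, once upstream of Cd247 and not upstream of Ncr1. It was present in 64.1% of 32851 RefSeq promoter entries of the same kind, so its presence does not set these genes apart. TGTGGT, a RUNX core, was found only upstream of Ncr1 among these 4, with 2 matches on both strands together, and in 14% of all entries. AGGTGT, a T-box core, had no match in the 4 windows and was in 11.8% of all entries.

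The ITAM adaptors Tyrobp and Fcer1g were lowest in the WT pool and highest in the CD1d-/- pool, and the receptors Cd7, Ncr1, Cd244 and Cd160 had the same order. Hcst and Cd247 were at nearly the same level in all pools, and Sh2d1a had the opposite order. Levels are given as the summed UMIs of the gene divided by all UMIs of the pool and scaled to 1000000 (CPM). Tyrobp was at 398.7 CPM (95% interval 392.1 to 405.5) in the WT pool, 1169 CPM (1160 to 1177) in the Jα18-/- pool and 2543 CPM (2517 to 2569) in the CD1d-/- pool. Fcer1g was at 481.1, 1371 and 2790 CPM in the same order of pools. Tyrobp was thus 2.93-fold and Fcer1g 2.85-fold higher in the Jα18-/- than in the WT pool, and they were 6.38-fold and 5.80-fold higher in the CD1d-/- than in the WT pool.

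Hcst, in contrast, was at 989.8 CPM (979.3 to 1000) in the WT pool, 1095 CPM (1086 to 1103) in the Jα18-/- pool and 1015 CPM (998.2 to 1031) in the CD1d-/- pool. Cd247 was at 181.5, 218.9 and 187.2 CPM. The intervals of the WT and CD1d-/- pools overlapped for both genes. Sh2d1a was at 166.1 CPM (161.8 to 170.5) in the WT pool and at 108.3 CPM (105.7 to 110.9) and 66.45 CPM (62.33 to 70.78) in the Jα18-/- and CD1d-/- pools, so that the WT pool stood 2.5-fold above the CD1d-/- pool.

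Among the receptors, Ncr1 was at 32.49 CPM (30.6 to 34.46), 139 CPM (136 to 142) and 259.6 CPM (251.4 to 268) in the WT, Jα18-/- and CD1d-/- pools. Cd244 was at 20.64, 48.36 and 132.1 CPM, and Cd7 at 725.7, 1921 and 3960 CPM. Cd160 was at 563.6, 731.8 and 1278 CPM. For these 4 receptors the pools followed 1 order without overlapping intervals. Cd226 was the exception, at 484.3 CPM (476.9 to 491.7) in the WT pool, 334.5 CPM (329.9 to 339.1) in the Jα18-/- pool and 402.8 CPM (392.5 to 413.2) in the CD1d-/- pool, so the WT pool was highest and the Jα18-/- pool lowest.

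**Figure D1:**
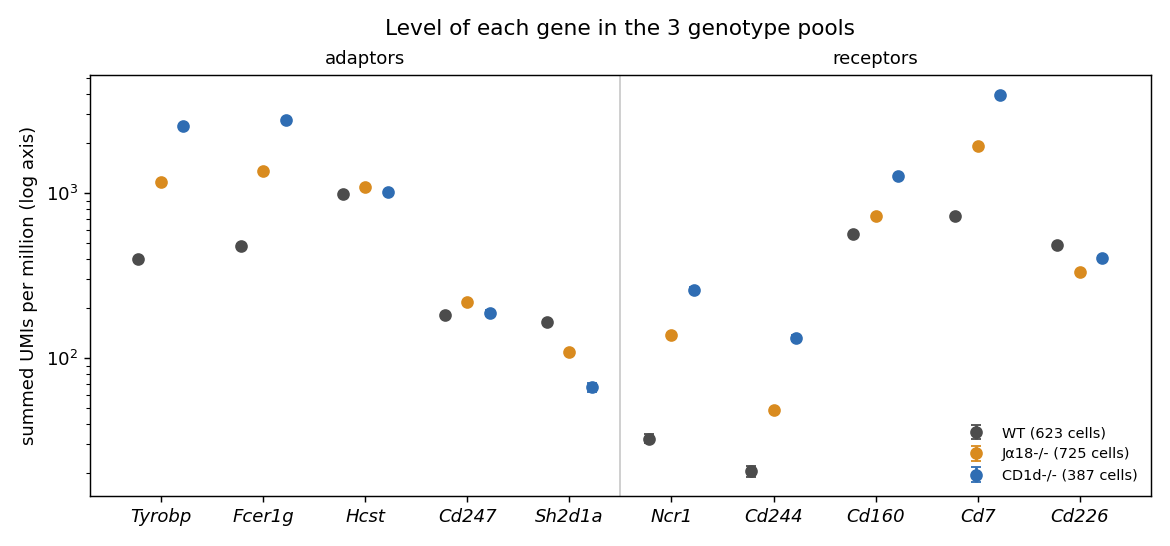
Level of the 10 genes in the 3 genotype pools, in CPM on a log axis, with adaptors on the left and receptors on the right; bars are 95% Poisson intervals, mostly smaller than the points. Tyrobp is at 398.7 CPM in the WT and 2543 CPM in the CD1d-/- pool, Hcst lies between 989.8 and 1095 CPM, and Sh2d1a is at 166.1 and 66.45 CPM in the WT and CD1d-/- pools.

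A gene was counted as past 2-fold where it had at least 100 UMIs in the pair of pools. Of the 10 members, 5 were past 2-fold higher and 0 lower in the Jα18-/- than in the WT pool, against 13.9% of 10267 genes higher and 7.12% lower. These 5 were Tyrobp, Fcer1g, Cd7, Ncr1 and Cd244. In the CD1d-/- against the WT pool 6 members were higher, those 5 and Cd160, and 1, Sh2d1a, was lower, against 12.2% of 9447 genes higher and 12.3% lower. Between the CD1d-/- and Jα18-/- pools 4 members were higher and 0 lower, against 9.59% of 10042 genes higher and 17.6% lower. These 4 were Tyrobp, Fcer1g, Cd7 and Cd244. In thinned cells 2 were past 2-fold in that comparison, Cd244 (log2 1.68) and Ncr1 (1.32), while Tyrobp (0.86), Fcer1g (0.95) and Cd7 (0.95) did not reach it. The median log2 ratio was 0.80, 1.81 and 0.85 over the members in these 3 comparisons and 0.13, 0.01 and -0.13 over all genes; the comparisons share pools, so they are not independent of each other.

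The share of cells in which a gene was found differed in the same way. In cells thinned to 10000 UMIs a Tyrobp UMI was found in 40.5% (36.3 to 44.9) of WT cells, 76.9% (73.4 to 80.1) of Jα18-/- cells and 93.8% (89.9 to 96.6) of CD1d-/- cells. As deposited the shares were 67.7%, 96.6% and 91.5%. A UMI was thus found in nearly every cell of the knockout pools, but in many cells the level was low. The median was 0 Tyrobp UMIs per 10000 in the WT pool, 2 in the Jα18-/- pool and 18 in the CD1d-/- pool, while the cell at the 90th percentile held 5.8, 45.9 and 60.4.

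A level cut of 4 UMIs per 10000 was added after the data were seen, to set cells with a clear level apart from cells with a few UMIs. Tyrobp reached it in 12% (9.38 to 15.2) of WT cells, 40.7% (36.8 to 44.6) of Jα18-/- cells and 71.8% (65.5 to 77.6) of CD1d-/- cells. Fcer1g reached it in 15.3%, 45.2% and 78.9% of cells and Cd7 in 25.6%, 50.8% and 80.2%. For each of these genes the CD1d-/- pool had the largest share of such cells and the WT pool the smallest, without overlap. All of Tyrobp, Fcer1g and Cd7 reached it in 42 of 523 WT cells (8.03%), 188 of 632 Jα18-/- cells (29.7%) and 146 of 227 CD1d-/- cells (64.3%), and none of them did in 67.7%, 35.8% and 11.5% of cells.

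The receptors Ncr1 and Cd244 were found in fewer cells. An Ncr1 UMI was found in 5.54% of WT (29 cells), 22.9% of Jα18-/- and 41.4% of CD1d-/- thinned cells, and 4 or more in 3.25% (1.91 to 5.15), 10.1% (7.89 to 12.8) and 28.2% (22.4 to 34.5). A Cd244 UMI was found in 6.88%, 16.9% and 41.4% of cells, and 4 or more in 2.29%, 3.64% and 14.1%. The intervals of the WT and Jα18-/- pools overlapped for Cd244 at the level cut, and those of the CD1d-/- pool lay above both. Cd160 was found in 71.3%, 78.3% and 87.7% of cells and Cd226 in 71.3%, 53% and 62.6%, so these receptors were present in most cells of every pool.

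Hcst was found in 93.7% (91.2 to 95.6), 94.9% (92.9 to 96.5) and 93.4% (89.3 to 96.2) of WT, Jα18-/- and CD1d-/- cells, and its median was 8, 9 and 8 UMIs per 10000. Cd247 was found in 45.3%, 55.4% and 44.9% of cells. Sh2d1a was found in 39.8% (35.5 to 44.1), 29.1% (25.6 to 32.8) and 19.8% (14.8 to 25.6) of cells. Of the adaptors, only Hcst was thus found in over 9 in 10 cells of each pool, and only Sh2d1a was found in fewer CD1d-/- than WT cells without overlap of the intervals.

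**Figure D2:**
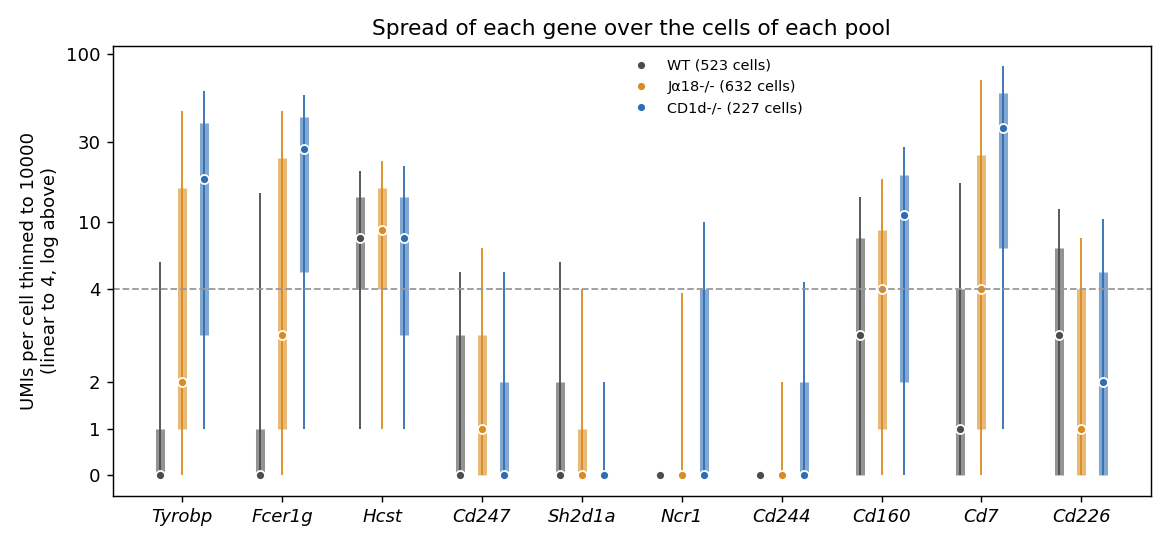
UMIs of each gene per cell thinned to 10000 UMIs, on an axis that is linear to 4 and logarithmic above, for 523 WT, 632 Jα18-/- and 227 CD1d-/- cells; points are medians, thick bars span the 25th to 75th and thin bars the 10th to 90th percentile, and the dashed line is the level cut. The median of Tyrobp is 0, 2 and 18 in the 3 pools, while that of Hcst is 8, 9 and 8.

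Markers of other cell types also differed between the pools. Lyz2, a lysozyme gene of myeloid cells, was found in 39.5% of WT, 30.9% of Jα18-/- and 80.4% of CD1d-/- cells as deposited, at 77.3, 14.7 and 588.2 CPM, so it was lowest in the Jα18-/- pool, where Tyrobp was 2.93-fold above WT, and highest in the CD1d-/- pool. Of 11 myeloid markers 9, 9 and 10 had a UMI in the 3 pools; S100a8 and S100a9 were at 0 in the WT pool, Cd14 and S100a9 in the Jα18-/- pool and S100a9 in the CD1d-/- pool. They summed to 89.1, 27.2 and 616.5 CPM, mostly Lyz2, and the other 10 summed to 11.8, 12.6 and 28.3 CPM. C1qb, C1qc, Clec4f and S100a8 were lower in the CD1d-/- than in the Jα18-/- pool. Of 5 hepatocyte markers 5, 4 and 5 had a UMI, with Alb at 0 in the Jα18-/- pool, and they summed to 16.4, 2.63 and 0.826 CPM, the reverse of the order of Tyrobp. The myeloid sum was higher in cells at or above the Tyrobp level cut than below it, at 163.5 against 96.7 CPM in the WT pool, 44.4 against 17.9 CPM in the Jα18-/- pool and 949.7 against 509.4 CPM in the CD1d-/- pool. Without Lyz2 it was 34.9 against 11.3, 21.4 against 8.53 and 40.5 against 32.8 CPM. Tyrobp and Fcer1g are themselves expressed by myeloid cells. Thinned cells were also split by Lyz2. Without a Lyz2 UMI, Tyrobp was at 417.7, 1282 and 1514 CPM in 367 WT, 577 Jα18-/- and 21 CD1d-/- cells. With a Lyz2 UMI it was at 251.9, 1629 and 2467 CPM in 156, 55 and 206 cells. The 21 CD1d-/- cells were nearer to the Jα18-/- level than all thinned CD1d-/- cells were (2378 against 1312 CPM over all thinned cells). Below 4 Lyz2 UMIs, however, Tyrobp was at 362.1, 1316 and 2443 CPM in 483, 628 and 111 cells. At 4 or more it was at 442.5, 725 and 2316 CPM in 40, 4 and 116 cells. The part of myeloid RNA in the results was not tested.

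The cells at or above the Tyrobp level cut also carried T cell transcripts, as the gate requires. A UMI of Cd3d, Cd3e or Cd3g was found in all 63 such WT cells, all 257 Jα18-/- cells and 99.4% of 163 CD1d-/- cells. Their median was 32, 32 and 31 Cd3 UMIs per 10000, against 30.5, 30 and 23 in the cells below the cut. The sum of the 6 genes of the whole T cell list was 4237 against 4159 CPM in the WT pool, but 3939 against 4153 CPM in the Jα18-/- pool and 3695 against 3719 CPM in the CD1d-/- pool. Over the whole pools that sum was mostly Cd3d and Cd3g. Cd5 was at 108.3, 106.7 and 45.1 CPM and Cd6 at 116.5, 158 and 47.4 CPM, both lowest in the CD1d-/- pool. In the tests of receptor splits below, at the level cut, Cd5 was called lower in Ncr1-positive and Cd244-positive cells and Cd6 in Ncr1-positive cells. Of 4 NK cell markers (Eomes, Klrb1c, Prf1 and Gzma) all had UMIs, and their sum was 4721 against 867.4 CPM, 4070 against 887.5 CPM and 5664 against 1447 CPM in cells above and below the cut. Over the whole pools that sum was mostly Gzma (580.8, 1295 and 3309 CPM) and Klrb1c, the gene of the gate (722.7, 868.7 and 956.5 CPM). Eomes was at 0.616, 3.27 and 2.2 CPM, lower in the CD1d-/- than in the Jα18-/- pool.

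The pools also differ in which cells they hold. Cells with a UMI of a Ly49 gene (9 Klra genes were counted) made up 27.5% of WT, 70.4% of Jα18-/- and 80.2% of CD1d-/- thinned cells. The members were therefore compared again within thinned cells alike in whether a Ly49 and a Cd8a UMI was found, a split added after the data were seen. Within cells with both a Cd8a and a Ly49 UMI, Tyrobp was at 2847 CPM (2665 to 3038) in 32 WT cells, 3010 CPM (2915 to 3109) in 124 Jα18-/- cells and 3368 CPM (3254 to 3484) in 99 CD1d-/- cells. Fcer1g was at 3822, 3033 and 3542 CPM and Cd7 at 5572, 4892 and 4836 CPM there. In these cells the order of the pools seen before was gone for Fcer1g and Cd7, and 0 of 10 members were past 2-fold between the WT and Jα18-/- pools, against 10.4% of 2396 genes higher and 5.84% lower. Of 9 members with at least 100 UMIs, 0 were past 2-fold between the WT and CD1d-/- pools, against 7.57% of 2086 genes higher and 4.7% lower.

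Between the CD1d-/- and Jα18-/- pools 1 member was past 2-fold higher in these cells, Ncr1 at 414.1 against 196 CPM, and 1 lower, Sh2d1a at 33.3 against 90.3 CPM, where 4.89% of 3189 genes were higher and 6.08% lower. Sh2d1a was at 62.5 CPM (38.2 to 96.5) in the 32 WT cells, whose interval overlapped that of either knockout pool. Cd244, the receptor that SAP serves, was at 181.2, 129.8 and 189.9 CPM in these cells.

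Cells with neither UMI after thinning gave another picture. This group also took in cells whose Ly49 UMIs were lost in thinning, most of all in the Jα18-/- pool. Of the cells that were thinned, 264 WT, 39 Jα18-/- and 23 CD1d-/- cells had no Ly49 UMI as deposited, against 379, 187 and 45 after thinning. The part of these cells in the levels was not tested. In cells with neither UMI Tyrobp was at 71.2 CPM (62.8 to 80.3) in 371 WT cells, 289.3 CPM (264.7 to 315.4) in 177 Jα18-/- cells and 630 CPM (543.4 to 726.5) in 30 CD1d-/- cells. Fcer1g was at 126.7, 370.1 and 820 CPM, and Ncr1 at 5.12, 31.1 and 70 CPM. All 3 genes kept the order of the whole pools. Of 8 members with at least 100 UMIs, 3 (Tyrobp, Fcer1g and Cd7) were past 2-fold higher and 0 lower in each pair of pools, Ncr1 and Cd244 having too few UMIs here. Among all genes 5.85% were higher and 4.18% lower in Jα18-/- than in WT cells of this kind. The percentages were 10.9% higher and 18.2% lower for CD1d-/- against WT, and 8.63% higher and 14.9% lower for CD1d-/- against Jα18-/-. A Tyrobp UMI was found in 35.3%, 61.6% and 80% of the cells with neither UMI, so a low level was widespread in them.

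Cells with a Ly49 but no Cd8a UMI lay between. Tyrobp was at 642.9, 1249 and 2033 CPM in 112 WT, 321 Jα18-/- and 83 CD1d-/- cells of this kind, and Hcst at 964.3, 1041 and 990.4 CPM. Over all 3 kinds of cell Hcst ran from 964.3 to 1301 CPM, and Cd247 from 146.4 to 258.1 CPM. The level of these adaptors thus moved far less between kinds of cell than that of Tyrobp, which ran from 71.2 to 3368 CPM.

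**Figure D3:**
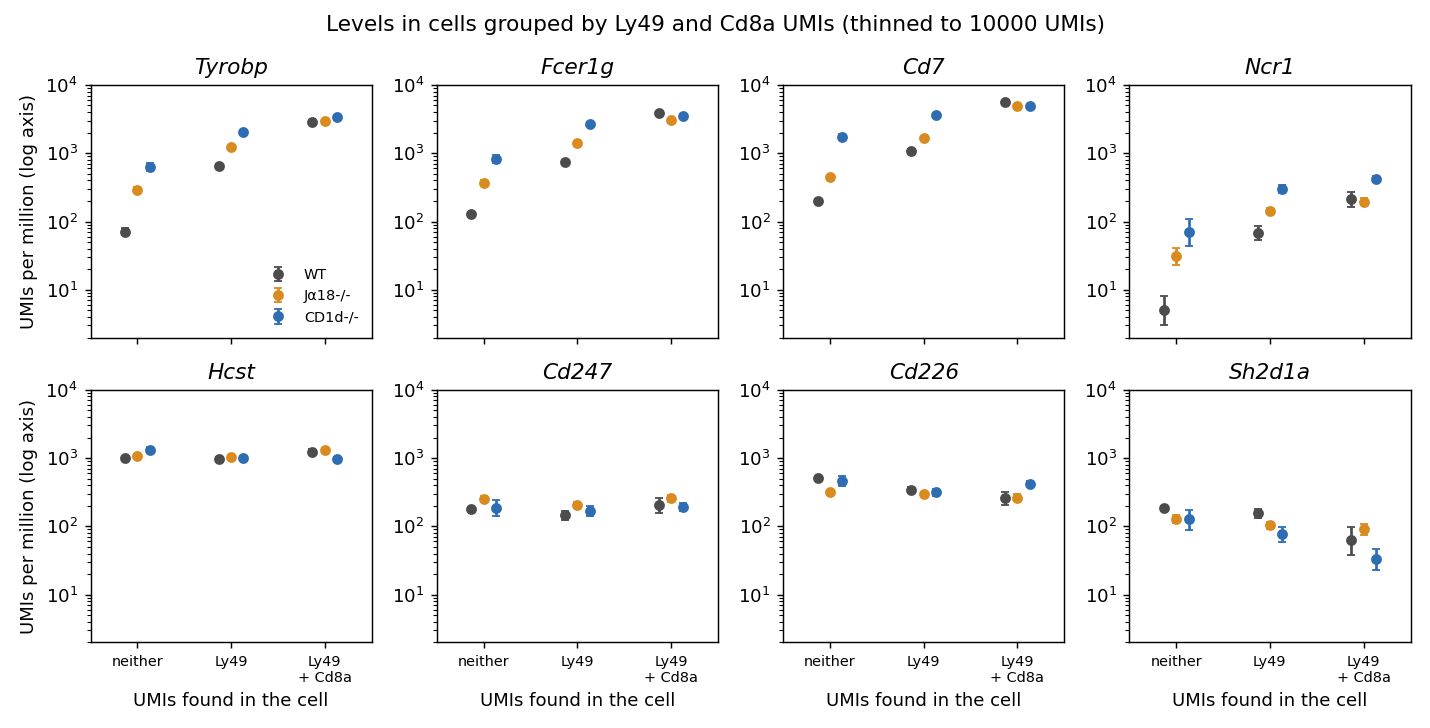
Levels (CPM, log axis) of 8 genes in thinned cells with neither a Ly49 nor a Cd8a UMI, with a Ly49 UMI only, and with both, for the 3 pools; bars are 95% Poisson intervals. Tyrobp runs from 71.2 CPM in WT cells with neither UMI to 2847, 3010 and 3368 CPM in cells with both, where the pools lie close together, while Hcst stays between 964.3 and 1301 CPM.

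Co-detection asks whether a receptor and the adaptor that carries its signal were found in the same cells. Of 25 receptor and adaptor pairs, the adaptor was found in a larger share of receptor-positive than receptor-negative thinned cells in every pool for 12 pairs, in a smaller share in every pool for 3, and in mixed directions for 10. In the counts as deposited 20 pairs were higher in every pool and 0 lower, and at the level cut 11 were higher and 6 lower. Fcer1g, the partner of NKp46, was found in 89.7% (72.7 to 97.8) of 29 Ncr1-positive and 39.9% (35.5 to 44.3) of 494 Ncr1-negative WT cells. In the Jα18-/- pool it was found in 92.4% (86.8 to 96.2) and 76.6% (72.6 to 80.3), and in the CD1d-/- pool in 98.9% (94.2 to 100) and 92.5% (86.6 to 96.3). The gap was 49.8 percentage points in the WT pool and 6.46 points among CD1d-/- cells, where nearly every cell held an Fcer1g UMI.

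Cd247, the other known partner of NKp46, was found in 58.6% (38.9 to 76.5) of Ncr1-positive and 44.5% (40.1 to 49) of Ncr1-negative WT cells. The shares were 55.2% and 55.4% in the Jα18-/- pool and 44.7% and 45.1% in the CD1d-/- pool. The intervals overlapped in each pool, so no difference was detectable at this depth. Tyrobp, which does not carry the NKp46 signal, went with Ncr1 as Fcer1g did: it was found in 86.2% against 37.9% of Ncr1-positive and Ncr1-negative cells in the WT pool, 89.7% against 73.1% in the Jα18-/- pool and 100% against 89.5% in the CD1d-/- pool.

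At the level cut the contrast was wider. Fcer1g reached 4 UMIs per 10000 in all 17 WT cells that did so for Ncr1 and in 12.5% of the other 506, in 95.3% of 64 against 39.6% of 568 Jα18-/- cells, and in 98.4% of 64 against 71.2% of 163 CD1d-/- cells. Nearly every cell with a clear Ncr1 level thus also had a clear Fcer1g level, in each pool.

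For Cd244 and its adaptor Sh2d1a the direction was the other, with intervals that mostly overlapped. Sh2d1a was found in 25% (12.1 to 42.2) of 36 Cd244-positive and 40.9% (36.5 to 45.4) of 487 Cd244-negative WT cells. The shares were 17.8% (11 to 26.3) and 31.4% (27.5 to 35.6) in the Jα18-/- pool and 17% (10.1 to 26.2) and 21.8% (15.1 to 29.8) in the CD1d-/- pool. Sh2d1a was thus found less often in Cd244-positive cells in each pool, but the intervals were apart in the Jα18-/- pool only. In the counts as deposited it was found in 52.6% and 47.7% of Jα18-/- cells, the opposite direction. Tyrobp, with which 2B4 is not known to pair, was found in 88.9% of Cd244-positive and 37% of Cd244-negative WT cells, 97.2% and 72.8% of Jα18-/- cells, and 98.9% and 90.2% of CD1d-/- cells.

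Cd226 did not go with the ITAM adaptors. Fcer1g was found in 39.4% (34.4 to 44.6) of 373 Cd226-positive and 50.7% (42.4 to 58.9) of 150 Cd226-negative WT cells, and in 77.6% (72.8 to 82) and 83.2% (78.4 to 87.2) of Jα18-/- cells. In the CD1d-/- pool the shares were 95.1% and 95.3%. Hcst was found in over 90% of cells on either side of the Ncr1, Cd244 and Cd226 splits in each pool, which leaves little room for a difference in shares.

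**Figure D4:**
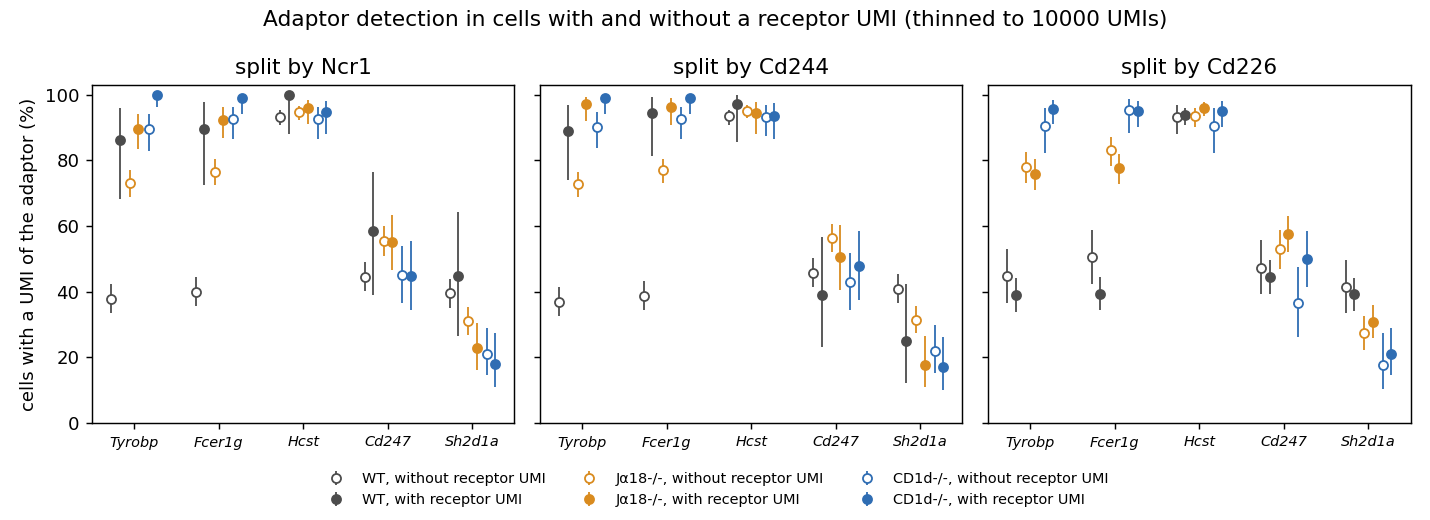
Share of thinned cells with a UMI of each adaptor among cells with (filled) and without (open) a UMI of Ncr1, Cd244 or Cd226, in the 3 pools; bars are 95% Clopper-Pearson intervals. Tyrobp and Fcer1g are higher in Ncr1-positive and Cd244-positive cells, for example Fcer1g at 89.7% against 39.9% for Ncr1 in the WT pool, while Sh2d1a is lower in Cd244-positive cells of each pool.

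The ITAM adaptors Tyrobp and Fcer1g were largely found at a clear level in the same cells. Of the thinned cells with 4 or more Tyrobp UMIs, 71.4% of 63 WT, 82.1% of 257 Jα18-/- and 92.6% of 163 CD1d-/- cells also had 4 or more of Fcer1g, against 7.61%, 20% and 43.8% of the remaining cells. Over the cells of a pool the Pearson correlation of their thinned counts (ln of 1 + UMIs) was 0.70 in the WT pool (n = 523), 0.72 in the Jα18-/- pool (n = 632) and 0.72 in the CD1d-/- pool (n = 227). The correlation of Tyrobp with Cd7 was 0.62, 0.65 and 0.74, and with Ncr1 0.54, 0.43 and 0.48. Tyrobp with Hcst gave 0.06, -0.06 and 0.09 and with Cd247 0.01, -0.02 and 0.00. Tyrobp with Sh2d1a gave -0.08, -0.19 and -0.21. Cells of a pool share libraries, so these values only describe the cells.

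The genes most like each member were then taken from 6726 candidates by the mean over pools of the same correlation in the counts as deposited, scaled to 10000 per cell. Tyrobp was most like the granzymes Gzmb (mean r 0.56) and Gzma (0.55) and the chemokine Ccl5 (0.53), over 623, 725 and 387 cells. For Fcer1g they were Ccl5 (0.57), Gzma (0.53) and Gzmb (0.50), and for Cd7 Ccl5 (0.57), Gzmb (0.52) and Cd8a (0.49). Granzymes and Ccl5 thus stood nearest to all 3 of these genes. Ncr1 was nearest to Gzma (0.41), Gzmb (0.33) and Lat2 (0.31), Cd244 to the chemokine Ccl4 (0.41), Gzmb (0.38) and Gzma (0.36), and Cd160 to Gzmb (0.36), the chemokine Xcl1 (0.32) and Ccl5 (0.32).

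The remaining members had no gene with a high correlation. For Cd226 the nearest was the chemokine receptor Cxcr6 (0.20), for Sh2d1a Ms4a6b (0.15), and for Hcst and Cd247 they were ribosomal protein genes (Rps14 at 0.13 and Rpl32 at 0.13). That of Cd226 with Cxcr6 was 0.21, 0.21 and 0.20 in the 3 pools. These correlations are weak.

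To ask which genes differed between cells with and without a receptor in all genotypes alike, UMIs were summed over the positive and the negative cells of each pool and tested with edgeR's quasi-likelihood test with a term for the pool, so that n = 3 pools of different genotypes and 6 sums. The threshold was an adjusted p (Benjamini-Hochberg, over all genes tested) under 0.05 together with an absolute ln fold change above 0.25. These p-values measure the difference between the 2 sides against how unevenly it held over the 3 pools. They do not measure the spread between mice or libraries. The receptor that defined a split, or the 9 Ly49 genes, was left out of its own results. In data simulated from the Ncr1 split the test recovered 38% of 4-fold and 9% of 2-fold changes, so a gene not called may still differ.

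Cells with an Ncr1 UMI were higher in Cd7, the only member called of 9, by 1.38 on the log2 scale (SE 0.23, edgeR adjusted p = 0.018), among 5 genes called, or 0.0491% of 10179. Cd7 was at 2867 CPM in the Ncr1-positive and 476 CPM in the Ncr1-negative cells of the WT pool, 2208 and 1208 CPM in the Jα18-/- pool and 4734 and 2725 CPM in the CD1d-/- pool. The other 4 called genes were Gzma, Klra5, Anxa2 and Gzmb, all higher. Tyrobp was at 1834 and 231.5 CPM, 1279 and 895.2 CPM, and 3101 and 1653 CPM, higher on the Ncr1-positive side of every pool, with a log2 difference of 1.41 (SE 0.30) that did not pass (edgeR adjusted p = 0.11). The difference was thus far larger in the WT pool than in the knockout pools. Ncr1-positive cells were also deeper, with medians of 45411.5 against 40301, 92670.5 against 28777 and 22054 against 9916 UMIs. The positive side was deeper in every pool of the other splits too.

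After thinning to 10000 UMIs, 5 members were called in the Ncr1 split, all higher: Tyrobp (log2 2.09, SE 0.37, edgeR adjusted p = 0.014), Fcer1g (1.76), Cd7 (1.68), Cd244 (1.86) and Cd160 (0.79), against 0.508% of 7673 genes called. At the level cut, which set cells with 4 or more against those with fewer than 2 UMIs per 10000, 4 were called, Tyrobp at 2.40 (SE 0.38, edgeR adjusted p = 0.004), Fcer1g, Cd7 and Cd160, against 0.708% of 7062 genes. The call of Cd7 was lost with DESeq2 (DESeq2 adjusted p = 0.52), which called Fcer1g alone of the members (log2 1.24, DESeq2 adjusted p = 0.021) and 0.401% of genes. It was also lost among cells within the stated filter on genes and depth (log2 1.40, edgeR adjusted p = 0.11), where 0 members were called, and with no pool term (edgeR adjusted p = 1).

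Cells with a Cd244 UMI gave 0 called members of 9 by edgeR, with 6 at an unadjusted p under 0.05 and 1, Cd160, called by DESeq2. Of all genes 0.0192% of 10423 were called by edgeR and 0.864% by DESeq2. The genes edgeR called were the chemokines Ccl4 and Xcl1. Tyrobp was at 1818 and 145.2 CPM in Cd244-positive and Cd244-negative cells of the WT pool, 1664 and 683.8 CPM in the Jα18-/- pool and 3059 and 1865 CPM in the CD1d-/- pool, and Ncr1 at 159.6 and 9.78 CPM, 184.3 and 94.6 CPM, and 344.9 and 147.6 CPM. Both were higher on the positive side of each pool by unequal amounts. Thinned, 5 members were called higher, Tyrobp (log2 2.19, SE 0.32, edgeR adjusted p = 0.005), Fcer1g (2.01), Cd7 (2.16), Ncr1 (1.82) and Cd160 (1.05), against 1.02% of 7383 genes called, and at the level cut the same 5 were called, against 1.03% of genes. Sh2d1a was lower by 0.97 on the log2 scale in that fit and did not pass (SE 0.32, edgeR adjusted p = 0.30).

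Cells with a Cd160 UMI were higher in Cd7 (log2 1.63, SE 0.22, edgeR adjusted p = 4.8e-05) and Tyrobp (1.47, SE 0.25, edgeR adjusted p = 0.0021), 2 of 9 members, where 0.125% of 9614 genes were called. Tyrobp was at 425.9 and 77.7 CPM, 1177 and 658.2 CPM, and 2581 and 872.4 CPM in positive and negative cells of the WT, Jα18-/- and CD1d-/- pools. The Tyrobp call was lost without the WT pool (log2 1.03, edgeR adjusted p = 0.15) and both calls were lost with DESeq2 (DESeq2 adjusted p = 0.27 for Tyrobp and 0.082 for Cd7), which called Cd244 and 0.162% of genes. Thinned, edgeR called the same 2 members and 0.0869% of genes, and at the level cut 4 members (also Fcer1g and Cd244) and 0.167% of genes.

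Cells with a Cd226 UMI had no gene called by edgeR out of 9986 (0%), with 543 genes at an unadjusted p under 0.05 and 31 (0.318%) called by DESeq2. No member of 9 was called by either tool, and 1, Fcer1g, had an unadjusted p under 0.05 (log2 -0.34, SE 0.10, edgeR adjusted p = 0.89). Thinned and at the level cut, edgeR called 0 members and 0% of genes. Leaving out the Jα18-/- pool gave 23 called genes and leaving out the WT pool gave 2. The count for this split thus rests on which pools are used.

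Cells with a Cd7 UMI were higher in Tyrobp (log2 2.10, SE 0.27, edgeR adjusted p = 6.8e-12), Fcer1g (1.62, SE 0.25, edgeR adjusted p = 1.3e-07), Ncr1 and Cd244, 4 of 9 members, where 0.196% of 9694 genes were called. Tyrobp was at 459.7 and 57.5 CPM in 473 positive and 150 negative WT cells, 1173 and 594.3 CPM in 699 and 26 Jα18-/- cells, and 2561 and 520 CPM in 365 and 22 CD1d-/- cells. Ncr1 rested on 3, 6 and 4 UMIs in the Cd7-negative cells of the 3 pools and Cd244 on 6, 0 and 0, so their fitted fold changes are not quoted. The Cd7-negative group was small in both knockout pools. It was also shallow, with medians of 19879, 12107.5 and 5971.5 UMIs in the WT, Jα18-/- and CD1d-/- pools, against 49372, 49580 and 16509 for Cd7-positive cells. The Fcer1g call was lost without the WT pool (log2 1.21, edgeR adjusted p = 0.41) and with DESeq2 (DESeq2 adjusted p = 0.099), and that of Cd244 without the CD1d-/- pool (edgeR adjusted p = 0.16). DESeq2 called the other 3 and 0.201% of genes. Thinned, 5 members were called, with Cd160, and 0.508% of genes, and at the level cut 4 (Tyrobp, Fcer1g, Cd244 and Cd160) and 0.699% of genes.

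The split by any Ly49 UMI gave the most called members, 5 of 10, all higher, where 0.196% of 10210 genes were called. Tyrobp was at 677 and 73.7 CPM in Ly49-positive and Ly49-negative cells of the WT pool, 1195 and 187.3 CPM in the Jα18-/- pool and 2665 and 885.3 CPM in the CD1d-/- pool (log2 2.39, SE 0.23, edgeR adjusted p = 5.4e-08). Fcer1g was at 818 and 87.5 CPM, 1398 and 394.2 CPM, and 2920 and 1020 CPM (2.08, SE 0.23, edgeR adjusted p = 1.6e-06). Cd7 differed by 2.17 (SE 0.19, edgeR adjusted p = 1.1e-08). Of the Ly49 genes, Klra4 and Klra8 encode receptors that signal through DAP12, the product of Tyrobp, while most others carry an inhibitory tail. Klra4 had 0 UMIs in every pool, and a Klra8 UMI was found in 1.28% of WT, 1.93% of Jα18-/- and 3.1% of CD1d-/- cells as deposited.

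Ncr1 and Cd244 were rare in Ly49-negative cells. Ncr1 was at 59.6 and 0.827 CPM, 142.6 and 4.43 CPM, and 275.4 and 45.2 CPM in Ly49-positive and Ly49-negative cells of the 3 pools (log2 4.40, SE 0.54, edgeR adjusted p = 1.0e-05). Cd244 was at 37.6 and 0.827 CPM, 49.5 and 4.43 CPM, and 139.8 and 28.1 CPM (3.63, SE 0.65, edgeR adjusted p = 0.0034). In Ly49-negative cells each of these genes rested on 13 UMIs in the WT and 7 in the Jα18-/- pool. The Cd244 call was lost without the WT pool (edgeR adjusted p = 0.091). DESeq2 called the same 5 members and 0.629% of genes. Thinned and at the level cut, edgeR called these 5 and Cd160, with 0.403% and 1.02% of genes. Hcst, Cd247, Cd226 and Sh2d1a were called in none of the 6 splits by edgeR on the deposited, the thinned or the level-cut sums, nor by DESeq2. Sh2d1a differed by -0.70 in the Ly49 split (SE 0.38, edgeR adjusted p = 0.97).

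**Figure D5:**
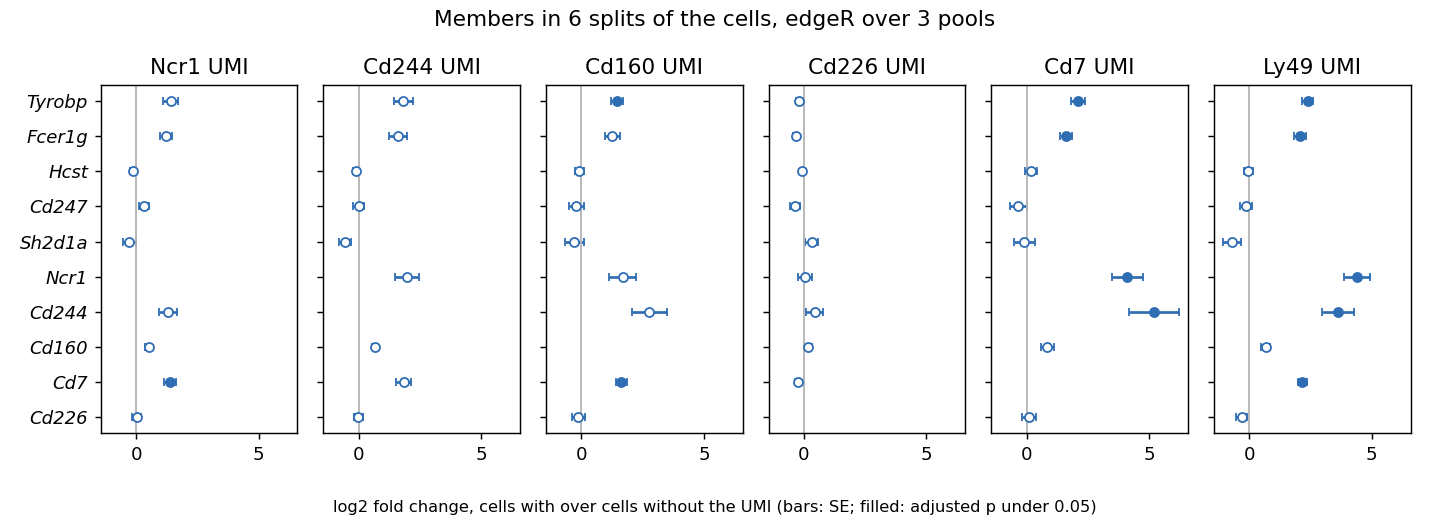
Log2 fold change of the 10 genes between cells with and without a UMI of the receptor or receptor family that heads each panel, from edgeR on sums over 3 pools; bars are standard errors and filled points passed an adjusted p under 0.05. Tyrobp is at 2.10 and 2.39 in the Cd7 and Ly49 panels and passed, while Hcst lies between -0.13 and 0.18 in all 6; the Ncr1 and Cd244 points of the Cd7 panel rest on few UMIs.

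Genes downstream of the adaptors were read from a list of 30 kinases, linkers and phosphatases. By edgeR on the deposited sums 1 of 28 tested rose in the Ly49 split and 0 fell: Lat2, a linker that acts after ITAM receptors (log2 2.77, SE 0.59, edgeR adjusted p = 0.033), where the list's median was 0.10 and that of all genes 0.11. In the other 5 splits it called 0 of 27 or 28, with 2 or 3 at an unadjusted p under 0.05. DESeq2 called Lat2 in the Ncr1, Cd244 and Ly49 splits and Plcg2, a phospholipase of ITAM signalling, in the Ly49 split (log2 2.97, SE 0.77, DESeq2 adjusted p = 0.021). In Ly49-negative cells of the WT, Jα18-/- and CD1d-/- pools Lat2 rested on 44, 7 and 47 UMIs and Plcg2 on 15, 0 and 18, so the size of these differences is uncertain. Thinned and at the level cut, edgeR called Lat2 higher in the Ncr1, Cd244, Cd7 and Ly49 splits, for example at 2.61 for Cd244 at the level cut (SE 0.45, edgeR adjusted p = 7.2e-06). Lat, the linker of the T cell receptor, was lower in the Cd244 split in both (-0.75, SE 0.15, edgeR adjusted p = 0.022 thinned, and -1.20, SE 0.28, edgeR adjusted p = 0.0045 at the level cut) and in the Ly49 split at the level cut (-0.74, SE 0.12, edgeR adjusted p = 0.0061). Lat2 was at 17.7, 72.7 and 105.5 CPM in the WT, Jα18-/- and CD1d-/- pools, and 5 of 27 list genes were past 2-fold higher in the Jα18-/- than in the WT pool (Syk, Lyn, Lat2, Plcg2 and Sh2d1b1) and 0 lower, against 13.9% of all genes higher and 7.12% lower. Zap70, the kinase that T cells use at CD3ζ, was at 256, 320.4 and 311.4 CPM, and Syk, which carries most ITAM signals outside T cells, at 0.733, 3.03 and 5.37 CPM. Syk was thus rare in every pool.

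Of 12 receptor genes that use these adaptors, Klrd1 (CD94, the partner of the NKG2 receptors) rose in the Ly49 split (log2 0.99, SE 0.21, edgeR adjusted p = 0.028) and the Cd7 split (1.08, SE 0.25, edgeR adjusted p = 0.01). No other of them was called by edgeR on the deposited sums, with 0 to 4 of 10 or 11 tested at an unadjusted p under 0.05. DESeq2 called Klra8 in the Ncr1, Klrd1 in the Cd244 and Fcgr3, an Fc receptor, in the Ly49 split. On the negative side of the WT, Jα18-/- and CD1d-/- pools Klra8 rested on 6, 18 and 0 UMIs and Fcgr3 on 57, 0 and 7. Thinned, edgeR called Klrd1 in the Ncr1, Cd244, Cd7 and Ly49 splits and Fcgr3 in the Cd7 and Ly49 splits, and at the level cut Klrd1 and Fcgr3 in the Cd244 and Cd7 splits and Klrd1 and Klrk1 (log2 0.72, SE 0.16, edgeR adjusted p = 0.045) in the Ly49 split, all higher. The Fcgr3 calls of the Cd7 split rested on 6, 2 and 1 UMIs in Cd7-negative thinned cells and 7, 3 and 3 at the level cut. Between pools 5 of 9 of these receptor genes were past 2-fold higher in the CD1d-/- than in the WT pool and 0 lower, against 12.2% and 12.3% of all genes. In thinned cells 3 (Klrc2, Klrd1 and Fcgr3) were, without Klrk1 (log2 0.96) and Klra8 (0.86). Klrd1 was at 1601 against 688.9 CPM and Klrk1 (NKG2D, the receptor that DAP10 serves) at 930.3 against 456.6 CPM, while its adaptor Hcst stayed level.

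Of the SLAM family and ligand genes 9 of 10 symbols were in the table. On the deposited sums edgeR called 0 of 8 tested in each split, with 0 or 1 at an unadjusted p under 0.05, and DESeq2 also called 0. In the Cd244 split, however, 3 of 8 had an unadjusted p under 0.05 by DESeq2, and 5 of 7 by edgeR in thinned cells. The list's median log2 difference in that thinned fit was -0.88, against -0.03 for all genes, and 0 were called. At the level cut edgeR called Slamf6, a SLAM receptor, lower in the Cd244 split (edgeR adjusted p = 0.036), where the Cd244-positive cells held 0, 0 and 1 UMIs of it and the others 257, 359 and 66 in the WT, Jα18-/- and CD1d-/- pools, so the fitted fold change is not quoted. Between pools 0 were past 2-fold higher and 3 (Slamf1, Slamf6 and Tnfrsf14) lower in the CD1d-/- than in the WT pool, against 12.3% of all genes lower. Slamf6 was not past it in thinned cells (log2 -0.69), and Tnfrsf14 rested on 10 UMIs in the CD1d-/- pool. The 2B4 ligand Cd48 was at 385.7, 429.8 and 520.8 CPM. Tigit, Cd96 and Btla share ligands with Cd226 or Cd160. On the deposited sums edgeR and DESeq2 called 0 of them in each split, with 0 at an unadjusted p under 0.05 by edgeR and up to 1 by DESeq2. Btla was past 2-fold lower in the CD1d-/- than in either other pool.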

How the data were processed

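Single NK1.1+CD3e+ liver cells were profiled by single-cell RNA sequencing with UMIs. The authors deposited 1 table of UMI counts (24447 genes by 1735 cells), made per the labels with cutadapt 1.15, TopHat2 2.0.12 and HTSeq 0.10.0 on mm9. The counts were not normalized. Cell names give the genotype, so cells were summed into 3 pools (34102694, 60484252 and 14536585 UMIs in the WT, Jα18-/- and CD1d-/- pools). No 2 cells had identical counts, no doublet caller was run on these hand-picked cells, and no clusters were formed. The study's filter (over 500 genes, 10000 to 600000 UMIs) would keep 1382 cells; all 1735 were used, and thinned cells were drawn to 10000 UMIs (seed 20).

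Levels are CPM of summed counts with exact Poisson intervals, and shares have Clopper-Pearson intervals (scipy 1.17.1), for counting error only. Sums of receptor-positive and receptor-negative cells were tested with edgeR 4.0.16 (TMM, filterByExpr, quasi-likelihood F-test, pool as a term) in R 4.3.3, and DESeq2 1.42.0 was the alternative. The code was tested on data simulated from the Ncr1 split, with 200 of 10180 genes changed. The edgeR test recovered 38% of the 4-fold and 9% of the 2-fold changes and called 0 unchanged genes. Members, lists, tests and alternatives were chosen with earlier results of these data known; the level cut and the split by Cd8a and Ly49 were added after the data were seen. Named genes are the members, every list gene called in a split (at most 6 a list), and the 3 genes most like each member; Lyz2, Zap70, Syk, Klrk1, Cd48 and the other genes called in a split were named after their values were seen. Gene positions are NCBIM37 (mm9); RefSeq promoters of GRCm38.p6 were matched by symbol for 5 of the 10 members.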

Additional observations from a re-analysis of the deposited data

How the results depend on the processing

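No paired analysis was possible because the cell names carry no library or replicate number, so none was made by library; the 2 sides of a split were compared within pools through the pool term. The smallest unit is a pool of 1 genotype, depth differs between pools, and low UMI counts limit Ncr1 and Cd244.

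The number of genes called in the Ncr1, Cd244, Cd160, Cd226, Cd7 and Ly49 splits was 5, 2, 12, 0, 19 and 20. With DESeq2 it was 39 (Ncr1), 89 (Cd244), 31 (Cd226) and 63 (Ly49); with no filter on low counts it was 38, 38, 26, 11, 35 and 45 in the 6 splits; with cells thinned to 10000 UMIs 39 (Ncr1), 75 (Cd244), 7 (Cd160), 43 (Cd7) and 33 (Ly49); with 2 UMIs or more as positive 15 (Ncr1) and 27 (Cd244); within the stated filter 3 (Ncr1), 1 (Cd244) and 7 (Cd7); with no pool term 0 (Ncr1, Cd244, Cd160 and Ly49) and 2 (Cd7); and at the level cut 50 (Ncr1), 70 (Cd244), 58 (Cd7) and 86 (Ly49). Leaving out each pool in turn gave 2 to 13 (Ncr1), 4 to 66 (Cd244), 11 to 36 (Cd160), 0 to 23 (Cd226), 15 to 17 (Cd7) and 26 to 34 (Ly49). The causes were not tested. Each member's value in a split was compared with the main fit under each alternative in turn. In 469 of these comparisons it kept its side of the threshold. In 58 it passed under the alternative but not in the main fit, and in 23 a call of the main fit was lost. A call lost under several alternatives is counted once for each. None changed direction while called.

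Members past 2-fold numbered 5, 7 and 4 in the Jα18-/- over WT, CD1d-/- over WT and CD1d-/- over Jα18-/- comparisons; with thinned cells the last was 2, within cells with a Cd8a and a Ly49 UMI they were 0, 0 and 2, and within cells with neither they were 3, 3 and 3. Within cells with a Cd8a and a Ly49 UMI the log2 ratio reversed for Fcer1g (-0.33), Ncr1 (-0.12), Cd244 (-0.48) and Cd7 (-0.19) in the first comparison, Fcer1g (-0.11) and Cd7 (-0.20) in the second and Cd7 (-0.02) in the third. The members found in the smallest share of WT and the largest share of CD1d-/- cells numbered 6 with thinned cells and 2 as deposited, and the receptor and adaptor pairs higher in all 3 pools 12 and 20.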
